A study of Mus musculus with 2 samples.

Results

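Platelet surface receptors are the glycoproteins through which platelets, and the megakaryocytes that shed them, bind the vessel wall and one another. The set described here holds 9 genes, taken by symbol and found by Ensembl ID among the 55487 gene IDs of the count table: Itga2b and Itgb3, Gp1ba, Gp1bb, Gp9 and Gp5, Gp6, Clec1b and Treml1. RNA was sequenced from 2 cultures of C57BL/6 mouse bone marrow, with 1 library each. The EVI1+18 culture carried the retroviral vector pMYs-IG_3xHA-EVI1+18, and the EVI1-WT culture carried pMYs-IG_3xHA-EVI1-WT. EVI1 is a zinc finger transcription factor of the Mecom locus, and EVI1+18 comes from its aberrant splicing. Both cultures overexpressed an HA-tagged EVI1, so neither is free of the vector. Both began as lineage-negative cells, an enriched mixture of stem and progenitor cells and not a pure type, and 10000 sorted GFP-positive cells grew for about 3 weeks in a methylcellulose medium before RNA extraction. The EVI1+18 library held 20981903 counts and the EVI1-WT library 20480447. With 1 library per vector no difference has a replicate check. Every interval given is a 95% exact interval for counting error alone, and since the reads carry no molecular identifiers, copies made in amplification count more than once.

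The receptors work in a known order when a vessel is cut. The GPIb-IX-V complex, made from Gp1ba, Gp1bb, Gp9 and Gp5, catches von Willebrand factor on the exposed wall and slows the platelet. Glycoprotein VI, from Gp6, then binds collagen, and CLEC-2, from Clec1b, binds podoplanin, and both signal through the kinase Syk. These signals switch the integrin alphaIIb-beta3, from Itga2b and Itgb3, into the state that binds fibrinogen and bridges platelets. TLT-1, from Treml1, waits in alpha granule membranes and reaches the surface on activation. In blood formation Itga2b, also called CD41, is an early marker of the megakaryocyte path and is carried by some progenitors, whereas the GPIb-IX-V genes are marks of later megakaryocytes. GATA1 and ETS family factors such as FLI1 are the usual regulators of these genes.

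The promoters of the members are shown because the levels below divide the set, and because GATA and ETS sites are the known shared feature of megakaryocyte promoters. The windows run from 250 bases before to 50 bases after the annotated start and come from RefSeq on GRCm38.p6, whose table held 8 of the 9 members and no window for Itgb3. Capitals mark GATAA, a form of the core of GATA sites, or its reverse complement TTATC. Other forms of the core were not searched and are not marked. The windows of the 3 countable GPIb-IX-V genes, of Clec1b and of Itga2b read, 5′ to 3′ along the gene:
Gp1ba, chr11:70638872-70639171, plus strand: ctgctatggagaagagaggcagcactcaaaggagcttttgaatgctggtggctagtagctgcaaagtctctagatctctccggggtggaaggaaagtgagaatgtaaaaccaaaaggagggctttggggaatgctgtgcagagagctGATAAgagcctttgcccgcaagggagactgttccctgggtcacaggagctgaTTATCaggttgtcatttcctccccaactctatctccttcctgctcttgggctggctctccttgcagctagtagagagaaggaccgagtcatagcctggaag
Gp9, chr6:87777820-87778119, plus strand: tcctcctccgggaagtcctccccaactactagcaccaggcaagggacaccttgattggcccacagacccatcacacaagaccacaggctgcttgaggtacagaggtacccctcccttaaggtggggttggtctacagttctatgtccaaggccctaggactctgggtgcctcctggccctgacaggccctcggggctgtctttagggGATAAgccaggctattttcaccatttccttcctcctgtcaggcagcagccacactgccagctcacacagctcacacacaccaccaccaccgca
Gp5, chr16:30310732-30311031, minus strand: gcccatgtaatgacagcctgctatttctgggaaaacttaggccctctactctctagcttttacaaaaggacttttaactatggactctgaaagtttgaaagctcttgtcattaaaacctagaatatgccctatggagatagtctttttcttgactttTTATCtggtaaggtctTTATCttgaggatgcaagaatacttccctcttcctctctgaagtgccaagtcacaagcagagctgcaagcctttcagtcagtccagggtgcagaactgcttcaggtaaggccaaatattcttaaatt
Clec1b, chr6:129397047-129397346, plus strand: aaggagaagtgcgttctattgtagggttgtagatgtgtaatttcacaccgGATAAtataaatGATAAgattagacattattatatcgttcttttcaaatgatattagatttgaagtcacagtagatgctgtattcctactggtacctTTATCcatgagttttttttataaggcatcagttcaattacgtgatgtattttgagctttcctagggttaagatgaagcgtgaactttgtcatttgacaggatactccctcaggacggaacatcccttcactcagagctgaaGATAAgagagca
Itga2b, chr11:102469834-102470133, minus strand: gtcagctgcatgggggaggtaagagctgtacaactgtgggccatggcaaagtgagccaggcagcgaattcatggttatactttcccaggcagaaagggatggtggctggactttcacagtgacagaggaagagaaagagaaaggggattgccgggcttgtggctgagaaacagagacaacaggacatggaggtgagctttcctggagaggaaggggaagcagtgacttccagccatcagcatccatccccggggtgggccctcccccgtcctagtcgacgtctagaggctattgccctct

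The GATAA core, searched on both strands, occurred in 5 of the 8 windows. It occurs at least once in 25.4% of all 32851 promoter windows of the same length. Clec1b held 4 matches, Gp1ba 2, Gp5 2, Gp9 1 and Gp6 1, and the windows of Itga2b, Gp1bb and Treml1 held 0. At least 2 matches are found in 5.27% of all windows and at least 4 in 0.204%. In Gp1ba the matches began 103 and 51 bases before the start, in Gp5 93 and 77 bases before it, and in Gp9 43 bases before it. For ETS sites only the letters GGAAG, a form of the ETS core, were searched, on either strand. They were in 7 of the 8 windows, all but that of Clec1b, against 71.4% of all windows. Itga2b, without a GATAA match, held 4 matches to GGAAG. Its RefSeq start differs from that of GENCODE, the source of the gene coordinates given below. The window, up to 102470133, lies mostly inside the GENCODE gene, which ends at 102470122 on the minus strand. Bases before the GENCODE start of Itga2b were thus hardly searched, while the other windows lie at or close to their GENCODE starts. The 7 letters AAGATAA, which lie in the known EVI1 binding repeat and contain the GATAA core, occurred in the windows of Gp5 and Clec1b, 2 of 8, against 3.47% of all windows. Such matches describe letters, not binding sites, and no binding was measured.

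**Figure D1:**
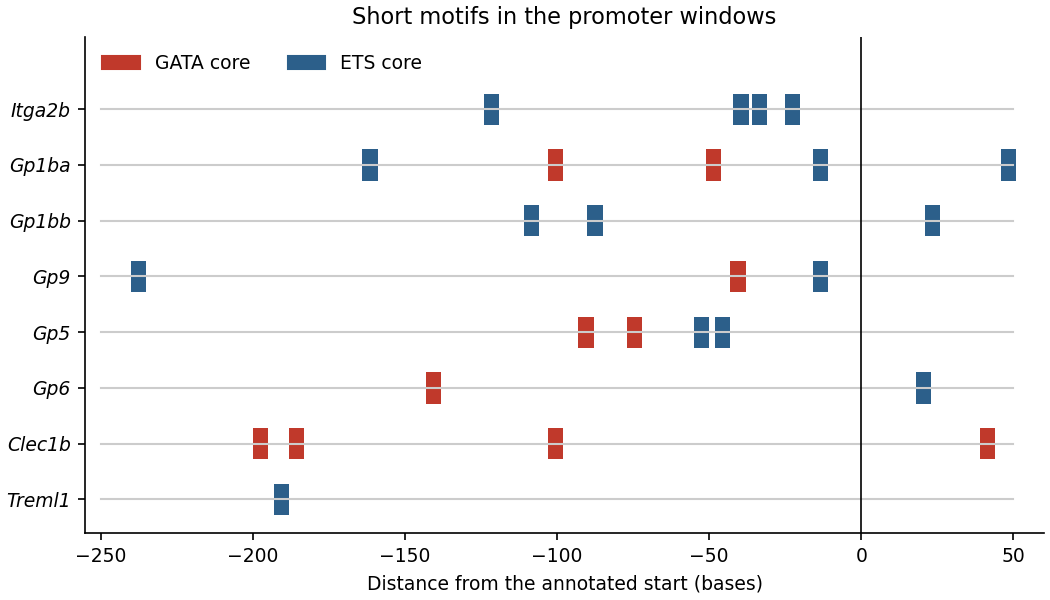
Positions of GATAA (GATA core, red) and GGAAG (ETS core, blue), both strands, in the promoter windows of the 8 members with a RefSeq window. Other forms of these cores were not searched. The horizontal axis is the distance from the annotated start in bases. Clec1b shows 4 GATAA matches and no GGAAG match, and Itga2b shows 4 GGAAG matches and no GATAA match. The Itga2b window lies mostly inside the gene as annotated in GENCODE, unlike the other windows.

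Of the 9 genes, 5 were more than 2-fold higher in EVI1+18 beyond counting error and 0 were lower. These were Itgb3, Gp1ba, Gp9, Gp5 and Clec1b. Itga2b was higher by less than 2-fold, and Gp1bb, Gp6 and Treml1 had too few counts to be compared by this rule. A gene was compared when it had a level of at least 1 scaled CPM (read counts scaled to library size) in a library, which 6 members had, and it was called when its whole counting interval lay past 2-fold. Clec1b reached 1 scaled CPM in EVI1+18 only. Among all genes, 5.05% of 13183 compared genes were called higher and 5.10% lower. The median log2 ratio of EVI1+18 over EVI1-WT was 3.22 for the 6 members and 0.011 for all compared genes, on a scale with a prior count of 2. No replicate test could be run, so these are descriptions of a pair of libraries. In such bulk RNA, more cells of the megakaryocyte path and more receptor RNA per cell cannot be told apart.

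**Figure D2:**
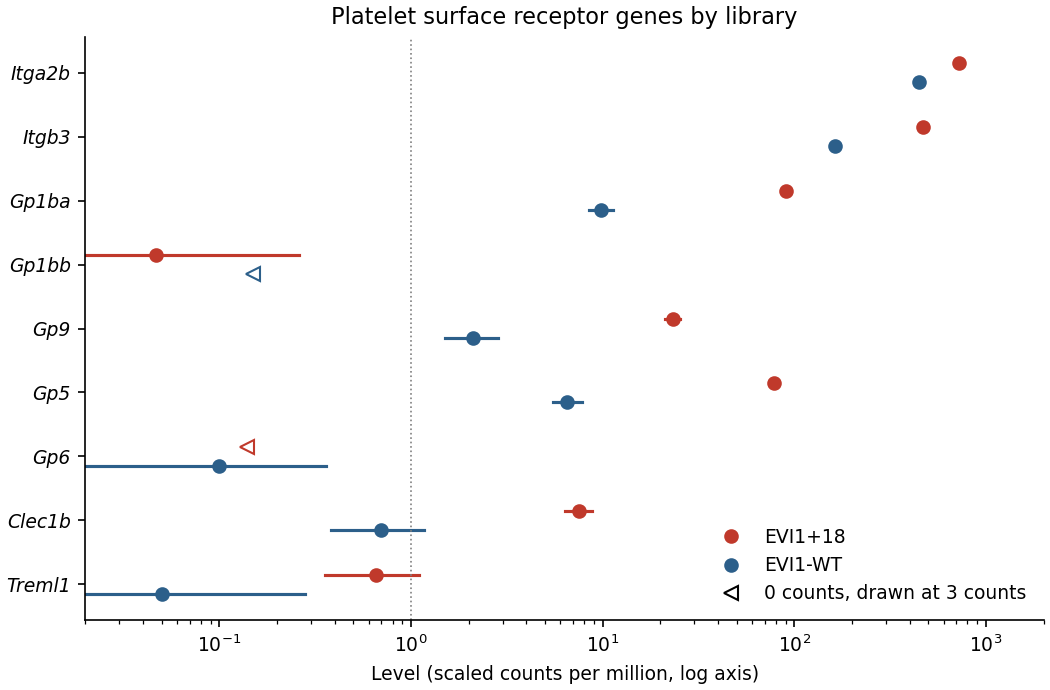
Level of each member in the EVI1+18 library (red) and the EVI1-WT library (blue), in scaled CPM on a log axis. Bars are 95% counting intervals, cut at the left edge of the axis, and open triangles stand for 0 counts, drawn at 3 counts. The dotted line is the filter at 1. Where both libraries have a point, the red point lies right of the blue one. Gp6 and Gp1bb held 2 counts or fewer in each library, and each shows a triangle, whose place is not a measured level.

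Itga2b and Itgb3, the integrin subunits, were the most abundant members in both cultures. Itga2b (ENSMUSG00000034664) lies on chromosome 11 of GRCm38, from 102453297 to 102470122 on the minus strand. It had 15412 counts in EVI1+18, or 718 scaled CPM, and 8953 counts in EVI1-WT, or 447 scaled CPM. The ratio of EVI1+18 over EVI1-WT was 1.61, with an interval of 1.57 to 1.65, and 11.95% of compared genes had a larger ratio. Itgb3 (ENSMUSG00000020689; chromosome 11, 104608000 to 104670476, plus strand) had 10074 counts in EVI1+18 and 3262 in EVI1-WT. That is 469.5 scaled CPM in EVI1+18 and 163 in EVI1-WT, a ratio of 2.88 with an interval of 2.77 to 3.00. The beta subunit thus differed more between the cultures than its alpha partner, and their intervals did not overlap.

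The balance of the pair can be read within each library, where the scaling between libraries cancels. Itgb3 made up 39.5% (38.9 to 40.1) of the summed counts of the pair in EVI1+18 and 26.7% (25.9 to 27.5) in EVI1-WT. Itga2b made up the remaining 60.5% in EVI1+18 and 73.3% in EVI1-WT. Per length, with each gene's counts divided by its annotated exon bases, the level of Itga2b was 1.66 times that of Itgb3 in EVI1+18 and 2.97 times in EVI1-WT. Itga2b has 10 annotated transcripts, and with the longest transcript as the length these ratios were 2.57 in EVI1+18 and 4.62 in EVI1-WT. By either length the excess of Itga2b was smaller in EVI1+18. Beta3 also pairs with the alphav chain outside platelets. The gene of that chain, Itgav, singled out for this pairing after its values were seen, had 31.8 scaled CPM in EVI1+18 and 47.5 in EVI1-WT, a 1.49-fold lower level (1.35 to 1.65).

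**Figure D3:**
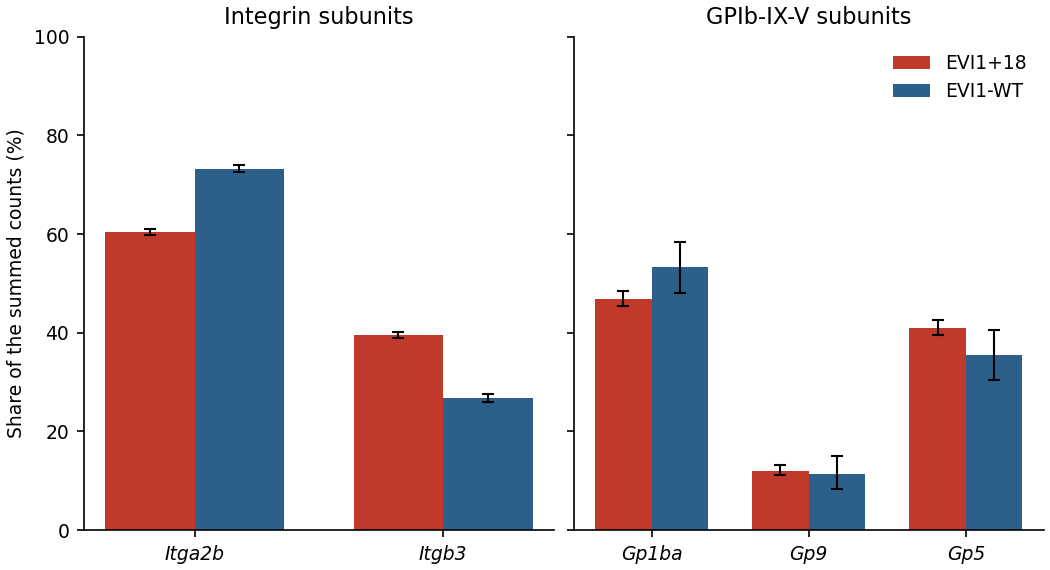
Share of each gene in the summed counts of the integrin pair (left) and of the 3 GPIb-IX-V genes with counts (right), in EVI1+18 (red) and EVI1-WT (blue). The vertical axis is in percent, and bars carry exact 95% binomial intervals. Itgb3 takes 39.5% of its pair in EVI1+18 and 26.7% in EVI1-WT, while the intervals of Gp1ba, Gp9 and Gp5 overlap between the libraries.

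The countable genes of the GPIb-IX-V complex were about an order of magnitude higher in EVI1+18 than in EVI1-WT. Gp1ba, whose product holds the binding site for von Willebrand factor (ENSMUSG00000050675; chromosome 11, 70639122 to 70642036, plus strand), had 1933 counts in EVI1+18, or 90.1 scaled CPM, and 197 counts in EVI1-WT, or 9.84 scaled CPM. Its ratio was 9.16 (7.91 to 10.7). Gp9, the small subunit that the complex needs to reach the surface (ENSMUSG00000030054; chromosome 6, 87778072 to 87779768, plus strand), had 498 counts in EVI1+18 and 42 in EVI1-WT. That gave 23.2 scaled CPM in EVI1+18 and 2.10 in EVI1-WT, a ratio of 11.1 (8.07 to 15.5). Gp5, the subunit that thrombin cleaves (ENSMUSG00000047953; chromosome 16, 30307685 to 30310779, on the minus strand), had 1689 counts in EVI1+18 and 131 in EVI1-WT. Its level was 78.7 scaled CPM in EVI1+18 and 6.54 in EVI1-WT, with a ratio of 12.03 (10.1 to 14.5). All 3 intervals lie wholly above that of Itgb3.

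Within each library the 3 genes can be compared without the scaling. Of their summed counts, Gp1ba took 46.9% (45.4 to 48.5) in EVI1+18 and 53.2% (48.0 to 58.4) in EVI1-WT. Gp5 took 41.0% (39.5 to 42.5) in EVI1+18 and 35.4% (30.5 to 40.5) in EVI1-WT, and Gp9 took 12.1% (11.1 to 13.1) in EVI1+18 and 11.4% (8.30 to 15.03) in EVI1-WT. Each pair of intervals overlaps, which leaves room for small differences, since the EVI1-WT shares rest on 370 counts. Gp9 has the smallest share of counts but also the shortest exons, at 881 bases. Per length, Gp1ba stood at 33.1 scaled CPM per kilobase in EVI1+18 and 3.62 in EVI1-WT, Gp5 at 35.8 in EVI1+18 and 2.98 in EVI1-WT, and Gp9 at 26.3 in EVI1+18 and 2.38 in EVI1-WT. On this scale Itga2b, at 131.7 in EVI1+18 and 82.0 in EVI1-WT, exceeded Gp1ba 3.97-fold in EVI1+18 and 22.6-fold in EVI1-WT, and by the longest transcripts 6.29-fold in EVI1+18 and 35.8-fold in EVI1-WT.

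The fourth subunit gene, Gp1bb (ENSMUSG00000050761; chromosome 16, 18620317 to 18622403, on the minus strand), had 1 count in EVI1+18 and 0 in EVI1-WT, and no fold is given. Of its annotated exon bases 91.1% also belong to the septin gene Sept5 on the same strand, and 41.5% to the predicted gene Gm49601. Of its 50-base transcript words 90.6% occur in another gene. Sept5 had 5 counts in EVI1+18 and 0 in EVI1-WT, and Gm49601 had 2 counts in EVI1+18 and 0 in EVI1-WT. How reads that fall in more than 1 gene were counted is not given in the sources used here, so the level of this subunit cannot be read from the table. For Itga2b, Gp1ba, Gp9, Gp5 and Treml1 the share of 50-base words found in another gene was 0%, and for Itgb3 it was 0.0860%.

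The signalling receptors were low. Clec1b (ENSMUSG00000030159; chromosome 6, 129397297 to 129409335, plus strand), which encodes CLEC-2, had 161 counts in EVI1+18, or 7.50 scaled CPM, and 14 counts in EVI1-WT, or 0.699 scaled CPM. Its ratio was 10.7, with an interval of 6.21 to 20.1 that contains the ratios of Gp1ba, Gp9 and Gp5. Its exons overlap those of the dendritic cell gene Clec9a on the same strand over 3.61% of its exon length, and Clec9a itself had 37 counts in EVI1+18 and 1 in EVI1-WT. Gp6, the collagen receptor gene (ENSMUSG00000078810; chromosome 7, 4363965 to 4397744, on the minus strand), had 0 counts in EVI1+18 and 2 in EVI1-WT. A count of 0 allows up to 3 counts by a one-sided limit, or 0.140 scaled CPM in EVI1+18, and up to 0.172 scaled CPM by the interval used for the other levels, so a difference in Gp6 was not detectable at this depth. Treml1 (ENSMUSG00000023993; chromosome 17, 48359916 to 48367176, plus strand) had 14 counts in EVI1+18, or 0.652 scaled CPM, and 1 count in EVI1-WT, or 0.0499 scaled CPM. The ratio was 13.1 with an interval of 1.99 to 553, and the gene stayed below 1 scaled CPM in both libraries.

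**Figure D4:**
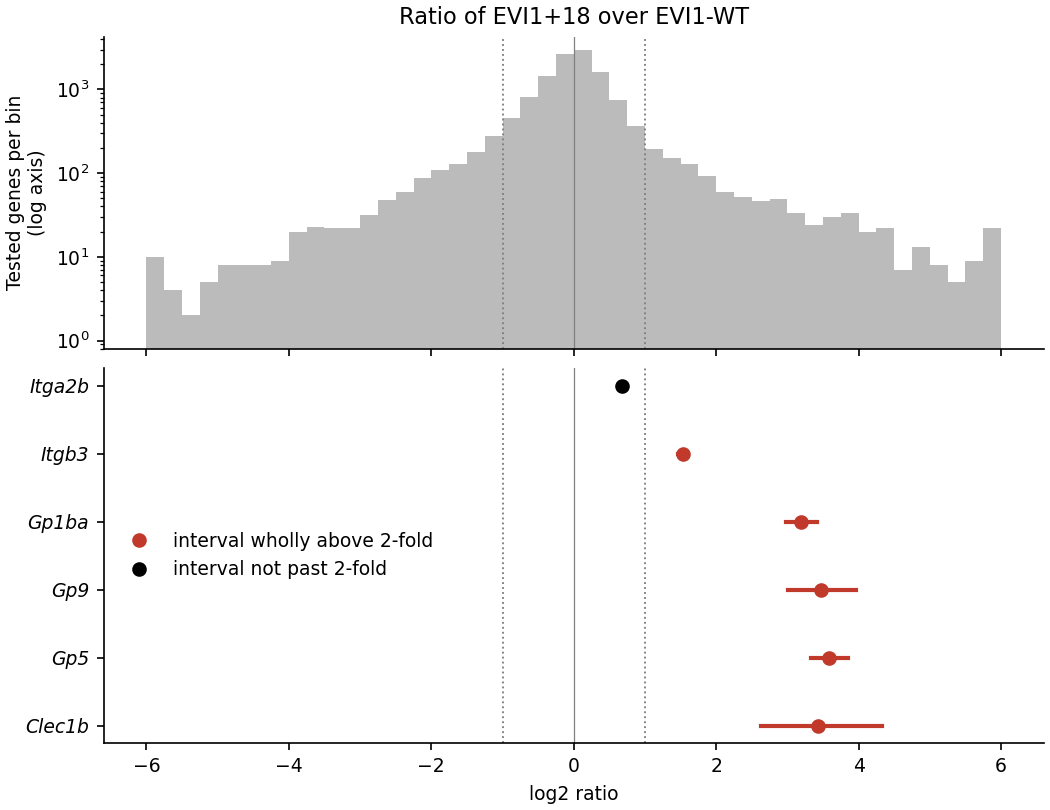
Above, the number of compared genes per bin of log2 ratio (prior count of 2, values past 6 placed in the end bins, log vertical axis). Below, the log2 ratio of EVI1+18 over EVI1-WT for the 6 compared members, without a prior count, with 95% counting intervals. Dotted lines mark 2-fold. Gp1ba, Gp9, Gp5 and Clec1b cluster between 9.16-fold and 12.03-fold, Itgb3 stands at 2.88-fold, and Itga2b at 1.61-fold lies inside the 2-fold line.

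The members' ratios and levels can also be placed among those of all genes. Of the 13183 compared genes, 201 had a larger ratio than Gp5, 207 than Gp9, 211 than Clec1b and 246 than Gp1ba. For Itgb3 the number was 682 and for Itga2b 1576. Ranked by level per length within a library, Itga2b stood at place 356 in EVI1+18 and 630 in EVI1-WT, and Itgb3 at place 640 in EVI1+18 and 2013 in EVI1-WT. Gp1ba stood at place 1665 in EVI1+18 and 8221 in EVI1-WT. Itga2b stood near the top in both libraries, while Gp1ba stood far higher in EVI1+18.

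Other markers of megakaryocytes were measured beside the members. In a list of 10 genes outside the set, 6 were called higher in EVI1+18 and 0 lower, 9 were compared, and the median log2 ratio was 3.998. Their summed level was 900.4 scaled CPM in EVI1+18 and 452 in EVI1-WT. The shares over all compared genes were 5.05% called higher and 5.10% lower. The chemokine gene Ppbp, named after its values were seen, was 16.1-fold higher (14.0 to 18.6). Tubb1, the tubulin of platelets, had 70 counts in EVI1+18 and 0 in EVI1-WT, at least 17.2-fold higher by the lower end of its counting interval. Nbeal2, needed to form alpha granules, was not called, with 179 scaled CPM in EVI1+18 and 243 in EVI1-WT, and Gng11 had 1 count in each library.

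Of 28 other receptor genes listed for platelets, not for mouse platelets alone, 23 were compared. Of these 4 were called higher, 4 lower and 15 neither, against 5.05% higher and 5.10% lower among all compared genes. Their median log2 ratio was -0.14. The alpha2 adrenergic receptor gene Adra2a had 209 counts in EVI1+18 and 2 in EVI1-WT, a ratio of 97.5 (26.7 to 811). Ly6g6f had 103 counts in EVI1+18 and 1 in EVI1-WT, a ratio of 96.1 (16.9 to 3834). Cd226, an adhesion receptor shared with lymphocytes, was 6.47-fold lower (5.04 to 8.41). The thrombin receptor gene F2r, at 453 scaled CPM in EVI1+18 and 1086 in EVI1-WT, was 2.40-fold lower (2.34 to 2.46), and its relative F2rl2 was 2.86-fold lower (2.62 to 3.13). A further relative, F2rl3, named after its values were seen, was not called, at a ratio of 1.54 (1.16 to 2.05). Pecam1, present on many blood and vessel cells, had 268 scaled CPM in EVI1+18 and 427 in EVI1-WT and was not called.

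Lists of genes that act downstream of the receptors had median log2 ratios near 0. The share called higher among all compared genes was 5.05%, and the share called lower was 5.10%. Of 15 genes of GPVI and CLEC-2 signalling, all compared, 2 were called higher and 1 lower, and the median log2 ratio was 0.045. The adaptor gene Grap2 had 336 counts in EVI1+18 and 8 in EVI1-WT, a ratio of 39.2 (19.7 to 91.5), and the protein kinase C gene Prkcq was 6.61-fold higher (5.71 to 7.67). The kinase gene Tec was 2.65-fold lower (2.52 to 2.79). Fcer1g, the signalling chain that glycoprotein VI needs and that mast cells use in their IgE receptor, had 172 scaled CPM in EVI1+18 and 268 in EVI1-WT, without a call. Of 12 genes listed for the control of integrin activation, some of which restrain it, 0 were called in either direction by the counting interval. Their median log2 ratio was -0.14. Among them talin, Tln1, had 1478 scaled CPM in EVI1+18 and 1133 in EVI1-WT. By the ratio itself, 1 of the 12 passed 2-fold upward, the kinase gene Ilk, at 2.54 (1.45 to 4.63) from 49 counts in EVI1+18 and 18 in EVI1-WT.

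Many ligand genes of the receptors lay below 1 scaled CPM in both libraries. Of 13 genes for ligands and for the proteases that shed the receptors, 6 were compared, 0 were called higher and 1 was called lower. Their median log2 ratio was -0.18. For all compared genes the shares were 5.05% higher and 5.10% lower. The 3 fibrinogen chain genes had at most 1 count in a library. Thrombospondin, Thbs1, which many myeloid cells make, was the gene called lower, at 837 scaled CPM in EVI1+18 and 3010.2 in EVI1-WT. Osteopontin, Spp1, a ligand of beta3 integrins, had 1173 scaled CPM in EVI1+18 and 1807 in EVI1-WT and was not called. Named after their values were seen, von Willebrand factor, Vwf, had 120.5 scaled CPM in EVI1+18 and 99.8 in EVI1-WT, and podoplanin, Pdpn, had 57 counts in EVI1+18 and 41 in EVI1-WT.

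Of 18 transcription factor genes listed for the megakaryocyte path, all compared, 7 were called higher and 0 lower by the counting interval. By the ratio itself, 2 passed 2-fold downward. Most of the 7 called higher also act in erythroid cells. The list had a median log2 ratio of 0.20. Among all compared genes, 5.05% were called higher and 5.10% lower. Zfpm1, the partner of GATA1 called FOG1, had 397 scaled CPM in EVI1+18 and 53.4 in EVI1-WT, a ratio of 7.44 (6.98 to 7.93). Mef2c had 42.3 scaled CPM in EVI1+18 and 1.10 in EVI1-WT, a ratio of 38.5 (25.3 to 61.8). Meis1 had 197 counts in EVI1+18 and 6 in EVI1-WT. Gata2, the factor of earlier progenitors and mast cells, had 376 scaled CPM in EVI1+18 and 769 in EVI1-WT, a 2.04-fold lower level whose interval (1.99 to 2.10) reached just inside 2-fold. The other 4 genes called higher are named after their values were seen. Gata1, whose product binds the GATA core, had 157 scaled CPM in EVI1+18 and 61.7 in EVI1-WT, a ratio of 2.54 (2.38 to 2.71). Tal1 and Gfi1b, which megakaryocytes share with erythroid cells, had ratios of 2.29 (2.18 to 2.41) for Tal1 and 2.66 (2.41 to 2.95) for Gfi1b. Klf1, an erythroid factor that opposes the megakaryocyte path, had 61.4 scaled CPM in EVI1+18 and 8.64 in EVI1-WT, a ratio of 7.11 (6.06 to 8.38). Fli1, an ETS factor also named after its values were seen, had 51.6 scaled CPM in EVI1+18 and 85.6 in EVI1-WT, a 1.66-fold lower level (1.54 to 1.79).

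**Figure D5:**
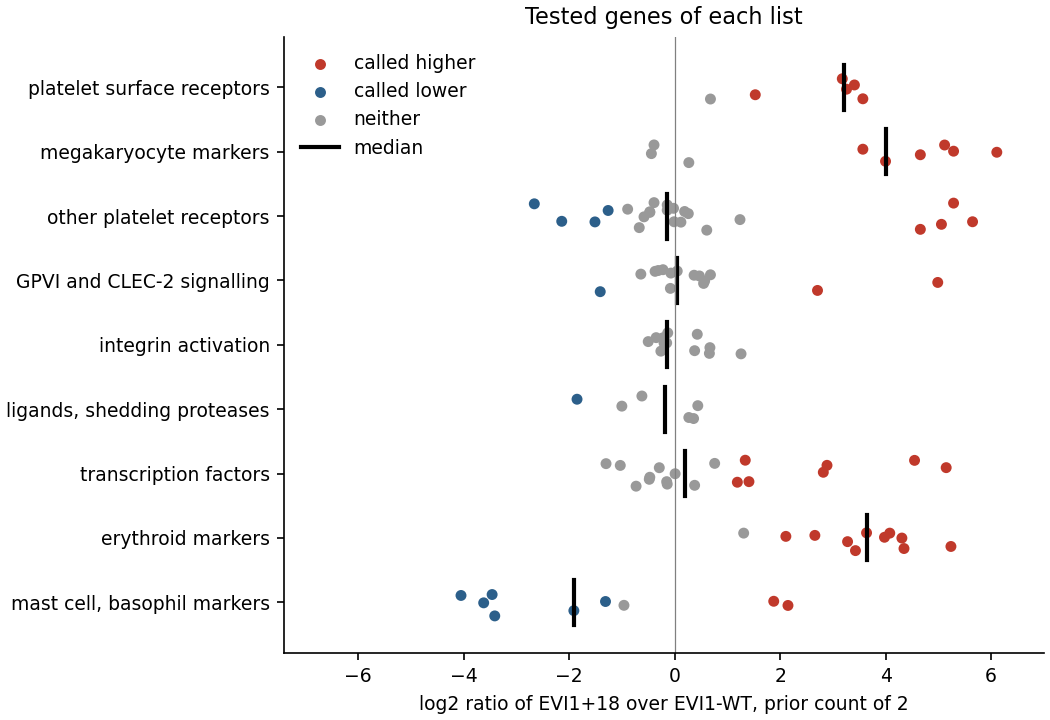
Log2 ratio of EVI1+18 over EVI1-WT, with a prior count of 2, for each compared gene of the platelet surface receptors, of megakaryocyte markers, of the receptors' partners and of erythroid and mast cell or basophil markers. Each point is a gene, red where called higher, blue where called lower, grey where neither, and the black bar is the median. The medians of the members (3.22), megakaryocyte markers (3.998) and erythroid markers (3.64) lie to the right, that of mast cell and basophil markers (-1.91) to the left, and those of the partner lists near 0.

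Markers of other cell types also differed between the libraries, and their part in the members' ratios was not tested. As a background, 5.05% of all compared genes were called higher and 5.10% lower. All 11 erythroid markers were compared, 10 were called higher and 0 lower, with a summed level of 12949.7 scaled CPM in EVI1+18 and 1410.4 in EVI1-WT. Most of both sums came from the globin genes Hba-a1, Hba-a2, Hbb-bs and Hbb-bt. Alas2, with 27 counts in EVI1+18 and 9 in EVI1-WT, was not called. Of 9 mast cell and basophil markers, 6 were called lower and 2 higher, with sums of 442 scaled CPM in EVI1+18 and 4609.6 in EVI1-WT. Of 5 eosinophil markers, 4 were called lower and 1 higher, with sums of 172 scaled CPM in EVI1+18 and 853 in EVI1-WT. Of 9 neutrophil markers, 5 were called lower and 0 higher, with sums of 1134 scaled CPM in EVI1+18 and 2134 in EVI1-WT. No marker of these 4 lists had 0 counts in either library. Of 5 early stem cell markers, among which Hlf had 0 counts in both libraries, 2 were called higher, and the sums were 77.1 scaled CPM in EVI1+18 and 19.02 in EVI1-WT. Cd34, a progenitor marker, had 132 counts in EVI1+18 and 90 in EVI1-WT and was not called.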

How the data were processed

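RNA of 1 EVI1+18 and 1 EVI1-WT colony culture was sequenced. The authors deposited whole-number read counts per Ensembl gene, not normalized. The submitters' processing notes name the build GRCm38 and the tools featureCounts, Subread, edgeR, SAMtools and HISAT2 2.2.1. Annotation release, strand setting and handling of shared reads: not given in the sources used here. Columns were assigned to cultures by name, with 0 left unmapped. Symbols, coordinates and exon lengths came from GENCODE M21, which matched 55227 of 55487 IDs.

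Counts were scaled with edgeR 4.0.16 (TMM, R 4.3.3). Each ratio of EVI1+18 over EVI1-WT has a 95% Clopper-Pearson interval (scipy 1.17.1), and shares and levels have exact binomial and Poisson intervals. With 0 residual degrees of freedom, edgeR's quasi-likelihood test could not be fitted, and no p-value is given. A gene of at least 1 scaled CPM was called when its whole interval passed 2-fold. Log2 ratios carry a prior count of 2. Levels per length are scaled CPM per kilobase of annotated exon. The calling rule was tested on simulated data.

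Members and lists were chosen with earlier results of these data known. Named are the members and, per companion list, up to 3 called genes in each direction by the interval bound nearest to 1, plus the most abundant uncalled gene; some of these are not given in the text. Alternatives were DESeq2 1.42.0 size factors, library totals with and without globin genes, other filters, call rules, prior counts and lengths.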

Additional observations from a re-analysis of the deposited data

How the results depend on the processing

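The 5 members called higher were the same 5 genes with DESeq2 size factors, with library totals, with totals without globin genes, with no filter, with a filter at 5 CPM, with the filter on the mean of the libraries (chosen after seeing the data) and with the ratio itself in place of its interval. Only the rule that the interval pass 4-fold left 4, without Itgb3. The median member ratio, 9.95, moved by at most 5.8% under another scaling, and Itga2b stayed uncalled, at up to 1.70-fold. Of all 13183 compared genes, 666 (5.05%) were higher and 672 (5.10%) lower. With a filter at 5 CPM, 431 of 10585 (4.07%) were higher, and with no filter 752 of 23475 (3.20%). With the ratio itself 1037 (7.87%) were higher and 1105 (8.38%) lower, and with the interval past 4-fold 294 (2.23%) were higher and 218 (1.65%) lower. The 5 lists of other receptors, signalling, integrin activation, ligands and transcription factors, with 13 genes higher and 6 lower in all, had 1 lower by the 4-fold rule. By the same rule 4 transcription factor genes were higher, in place of 7. With the ratio itself 2 transcription factor genes were lower, in place of 0. With a filter at 5 CPM, 2 other receptors were higher, in place of 4. The marker lists were not run under the alternatives. The prior count of 0.5 changed the log2 ratio of none of the 6 compared members beyond its counting interval. No paired analysis was possible because each group has 1 library. Depth limits Gp6 and Treml1, which had 14 counts or fewer in each library, and the level of Gp1bb cannot be read, as most of its exon bases are shared with another gene.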

Other observations

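Further marker lists gave these values, beside 5.05% of all compared genes called higher and 5.10% lower. Of 10 monocyte and macrophage markers, 8 were compared, 3 were called higher and 2 lower, and the sums were 1698 scaled CPM in EVI1+18 and 1263 in EVI1-WT. Among them Gpnmb, a glycoprotein of lipid-laden macrophages, was 5.02-fold higher, and C1qa had 0 counts in both libraries. Gpnmb had 1213.6 scaled CPM in EVI1+18 and 241.8 in EVI1-WT, and the higher sum in EVI1+18 rests on this gene. The 2 genes called lower were Ly6c2 and Adgre1. Ly6c2 had 101.1 scaled CPM in EVI1+18 and 462.6 in EVI1-WT, and Adgre1 had 94.4 in EVI1+18 and 245.5 in EVI1-WT. Osteoclasts carry beta3 integrin, and of their 5 markers 2 were compared and 1 called higher, cathepsin K, Ctsk, at 7.24-fold (5.22 to 10.3); Calcr had 0 counts in both libraries. Of 6 dendritic cell markers, 3 were compared and 2 called higher, with sums of 37.7 scaled CPM in EVI1+18 and 22.3 in EVI1-WT. Of 5 endothelial markers, 1 was compared and called higher, the receptor tyrosine kinase gene Tie1, with 239 counts in EVI1+18 and 79 in EVI1-WT. The endothelial genes Cdh5, Kdr, Tek and Emcn had at most 2 counts in each library.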
